A study of Mus musculus with 6 samples.

Results

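The genes described here are 10 mouse genes of cellular iron handling: Tfrc, Steap3 and Slc11a2 (uptake), Pcbp1 (intracellular iron delivery), Fth1, Ftl1 and Ncoa4 (storage and release), Slc40a1 (export), and Aco1 and Ireb2 (sensing). They were chosen by name, with earlier results of these data known. All 10 were found among the 43346 rows of the deposited count table by their Ensembl identifiers, and all 10 passed the filter on low counts that kept 14000 genes. RNA was taken from primary mouse embryonic fibroblasts, connective tissue cells grown out of embryos, of strain C57BL/6 at passage 9. The 3 erastin libraries came from cells given 3 µM erastin for 24 h, and the 3 control libraries from cells given DMSO for 24 h. All cells were grown in medium with 10% fetal bovine serum, nonessential amino acids, antibiotics and the thiol 2-mercaptoethanol, and no genetic change is given for either group. The labels say that the experiment was done in triplicate but not whether the replicates came from separate embryos, so p-values measure the spread between these libraries, which may be partly technical.

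Erastin inhibits the exchanger that brings cystine into cells and is a standard trigger of ferroptosis, a cell death that depends on iron and on the oxidation of membrane lipids. Cells take up iron when transferrin binds its receptor and the complex is carried into endosomes, where the iron is reduced and moved to the cytosol. Spare iron is stored inside the ferritin shell, and ferroportin is the known iron exporter of mammalian cells. The proteins IRP1 and IRP2 adjust this balance after transcription: when iron is scarce they bind hairpins called iron-responsive elements, which protects the transferrin receptor mRNA from decay and blocks the translation of ferritin mRNA. The comparison of erastin with DMSO asks how the transcripts of this system stood after the ferroptosis inducer.

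The sequences that link these genes are the iron-responsive elements themselves. GENCODE M21 transcripts were searched for the hairpin core, a C, 5 bases, the loop CAGTGN and 5 bases that pair with the first 5, with G-T pairs allowed. Matches were left out where they or the 4 bases on either side crossed an exon junction or ran past a transcript end. Sites with at least 4 of the 5 pairs numbered 8 and lay in 5 of the 10 genes. The rule accepts only this loop and an unbroken stem, so elements of another form would be missed. Each is printed 5′ to 3′ in DNA letters, T standing for U, with the loop in capitals and 4 bases on either side of the core, because the ferritin and transferrin receptor hairpins are the binding sites of the 2 sensor proteins.
Tfrc site 1: ttatcggaagCAGTGCcttccataa
Tfrc site 2: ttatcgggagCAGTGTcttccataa
Tfrc site 3: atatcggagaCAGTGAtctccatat
Tfrc site 4: ttatcgggaaCAGTGTttcccataa
Slc11a2: ccatcagagcCAGTGTgtttctatg
Fth1: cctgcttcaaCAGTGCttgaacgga
Ftl1: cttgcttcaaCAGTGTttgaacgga
Slc40a1: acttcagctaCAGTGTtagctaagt

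The 4 Tfrc sites are in the 3′ UTR, on the plus strand in mm10 at chr16:32631221-32631245, chr16:32631600-32631624, chr16:32631665-32631689 and chr16:32631712-32631736, and the printed letters differ between them at 2 to 8 of 25 positions. The Slc11a2 site, at chr15:100395155-100395179 on the minus strand, is in the 3′ UTR of 1 of the 8 annotated transcripts and has 4 of the 5 pairs, while the other 7 sites have all 5. The Fth1 site (chr19:9982734-9982758, plus strand), the Ftl1 site (chr7:45459781-45459805, minus strand) and the Slc40a1 site (chr1:45925467-45925491, minus strand) are in 5′ UTRs. The Fth1 and Ftl1 sites differ at 2 positions counted from the first printed base, C2T and C16T, with the Fth1 base first. With 1 transcript per gene, the core with all 5 pairs was in a UTR of 123 of 21901 protein-coding genes (0.562%), 4 of these 10 among them. Matches across exon junctions or near transcript ends were kept in this count. Annotated transcripts that hold the site number 2 of 7 for each Tfrc site, 5 of 9 for Fth1, 2 of 6 for Ftl1 and 3 of 8 for Slc40a1. Those of Tfrc, Fth1 and Slc40a1 include non-coding transcripts. A match describes letters, not measured binding, and gene counts do not tell transcripts with a site from those without.

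Total counts per library were 13333911 to 18505571 for DMSO and 16800789 to 20509970 for erastin. A count of 3, taken as the detection floor, was worth 0.140 to 0.234 CPM (counts scaled to library size by trimmed-mean factors), counting error only. DMSO replicate 3 lay apart from the other DMSO libraries on the second principal component (-43.9 against 30.6 and 19.6), which held 14.5% of the variance, so each result was also computed without it. Of 10 fibroblast markers all were detected, with summed levels of 35433 to 38496 CPM in DMSO and 25455 to 26901 CPM with erastin; 8 were lower, and Fn1 and Dcn did not pass. Macrophage markers, of interest because macrophages recycle iron, summed to 26.1 to 46.5 CPM and 29.7 to 61.1 CPM. All 8 had reads, Lyz2 the most, but Spi1 was at 0 in DMSO replicate 3 and erastin replicate 3 and was not tested. The smallest adjusted p of the 7 tested was 0.0548 (Cd68, edgeR). The 8 erythroid markers summed to at most 1.02 CPM in any library, and Hbb-bt, Hbb-bs and Gata1 were at 0 in all 6. Endothelial markers summed to 5.16 to 7.71 CPM and 14.1 to 17.6 CPM, with 2 of 3 tested genes (Kdr and Tek) higher. Skeletal muscle markers summed to 35.7 to 45.6 CPM and 65.3 to 69.1 CPM, nearly all of it Des. Epithelial markers stayed at or below 3.29 CPM in sum. Mitochondrially encoded transcripts made up 0.623% to 0.728% of DMSO counts and 0.968% to 1.10% of erastin counts. The part of these differences in the results below was not tested. In bulk RNA, fewer cells of a type and less RNA per cell cannot be told apart.

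After 24 h of erastin, 2 of the 10 iron genes rose (Tfrc and Fth1), 2 fell (Steap3 and Aco1) and 6 did not pass the test. Transferrin receptor mRNA rose most, 1.85-fold, and the mRNA of the endosomal iron reductase Steap3 fell most, to 0.595 of its DMSO level. The passing share, 4 of 10, lies near the background: 43.1% of all tested genes passed, 21.6% higher and 21.5% lower, at an adjusted p under 0.05 (edgeR quasi-likelihood test with Benjamini-Hochberg adjustment over 14000 genes). The groups did not overlap in those 4 genes, against 52.5% of all tested genes. The median log2 fold change of the 10 genes was -0.064, against -0.0014 over all tested genes. So the count of changed members is no result about iron genes, and what follows is about the single genes.

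**Figure D1:**
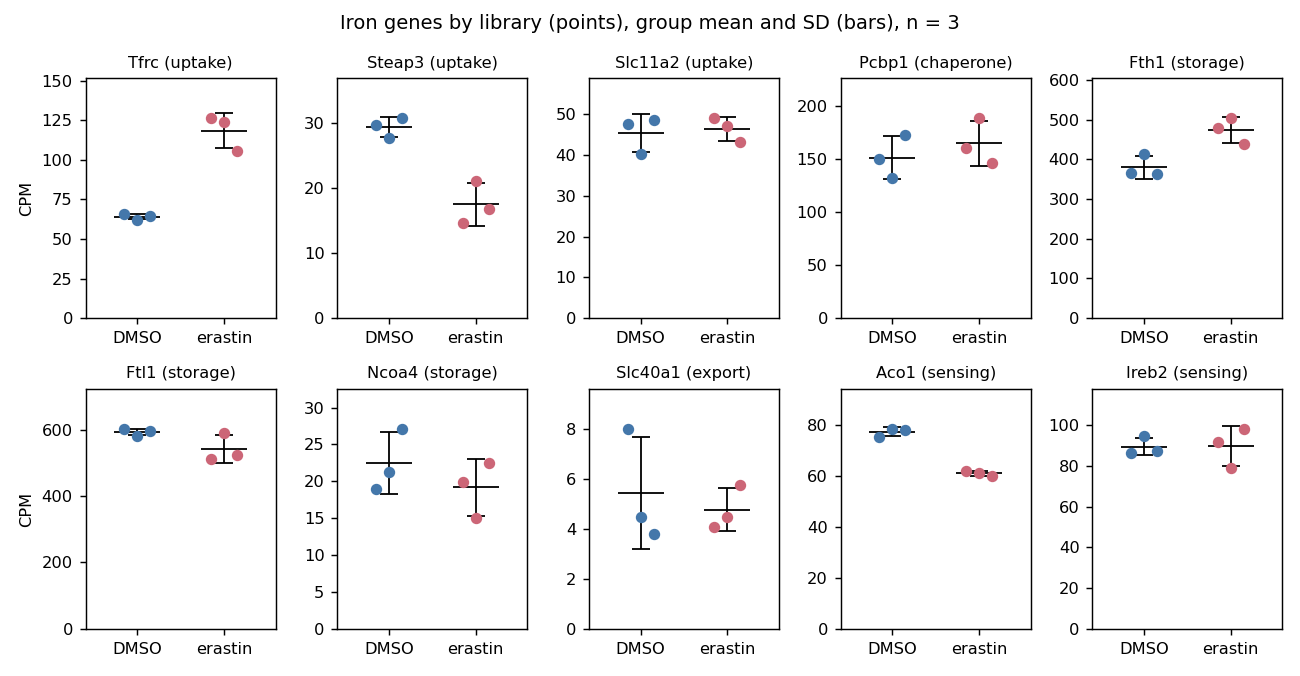
CPM of each iron gene in every library (points, 3 DMSO in blue and 3 erastin in red), with the group mean and SD as bars; each panel has its own axis from 0. The erastin points of Tfrc and Fth1 all lie above, and those of Steap3 and Aco1 all below, the DMSO points; in the other 6 panels the groups overlap.

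Tfrc (ENSMUSG00000022797.11; mm10 chr16:32608920-32632794, plus strand) encodes transferrin receptor 1, the main gate for transferrin-bound iron. Its level was 65.6, 62.1 and 64.8 CPM in DMSO replicates 1 to 3 and 126, 124 and 106 CPM in erastin replicates 1 to 3. The groups were far apart, the lowest erastin library standing well above the highest DMSO library. Mean CPM was 64.2 ± 1.80 and 119 ± 11.3 (SD, n = 3), a log2 fold change of 0.89 (SE 0.09, 95% interval 0.69 to 1.08, edgeR adjusted p = 1.85e-06). A change at least as large in either direction, with an adjusted p under 0.05, was found in 14.9% of all tested genes. The rise was 0.68 on the log2 scale after an offset for GC content and transcript length (edgeR adjusted p = 2.95e-05).

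Steap3 (ENSMUSG00000026389.12; chr1:120190757-120272705, minus strand) encodes a ferrireductase that turns ferric into ferrous iron in the endosome, so it acts just downstream of the receptor. DMSO replicates 1 to 3 held 29.7, 27.7 and 30.7 CPM, and erastin replicates 1 to 3 held 14.6, 21.1 and 16.9 CPM. Every erastin value was below every DMSO value, and erastin replicate 2 was the nearest to the controls. The mean fell (DMSO 29.4 ± 1.54, erastin 17.5 ± 3.28 CPM, SD, n = 3; log2 fold change -0.75, SE 0.15, 95% interval -1.06 to -0.43, edgeR adjusted p = 0.000851). Transcripts of these sequential steps of transferrin iron uptake moved in opposite directions.

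Slc11a2 (ENSMUSG00000023030.12; chr15:100387898-100425072, minus strand) encodes DMT1, which carries ferrous iron out of the endosome. DMSO libraries had 47.5, 40.1 and 48.6 CPM, and erastin libraries 48.9, 47.2 and 43.2 CPM. The ranges overlapped almost wholly. Its log2 fold change was 0.035 (95% interval -0.19 to 0.26, edgeR adjusted p = 0.822). Exons of the gene overlap 402 bases of Gm5475 on the other strand, which had 2 to 11 counts per library.

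Pcbp1 (ENSMUSG00000051695.6; chr6:86524492-86526321, minus strand) encodes a poly(rC)-binding protein that also acts as a chaperone delivering iron to ferritin. Levels were 150, 132 and 172 CPM with DMSO and 160, 188 and 146 CPM with erastin. The groups overlapped and the libraries within each spread widely, with an SD of 20.5 CPM in DMSO and 21.4 CPM in erastin (n = 3). The log2 fold change was 0.12 (95% interval -0.11 to 0.35, edgeR adjusted p = 0.385). The GC and length offset turned this into a call: the value was then 0.30 (edgeR adjusted p = 0.0229, range over its alternatives 0.0229 to 0.918).

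Fth1 (ENSMUSG00000024661.6; chr19:9980598-9985098, plus strand) encodes the ferritin heavy chain, the subunit with the ferroxidase site that oxidises iron for storage. It was counted at 365, 413 and 362 CPM with DMSO and at 479, 503 and 439 CPM with erastin. All erastin values were higher, with DMSO replicate 2 the closest to them. The mean rose from 380 ± 28.6 to 473 ± 32.4 CPM (SD, n = 3), which is 1.25-fold (log2 fold change 0.32, SE 0.08, 95% interval 0.15 to 0.48, edgeR adjusted p = 0.00398). A processed pseudogene aligned to Fth1 at 90% identity or more, Gm6977, held reads equal to 0.549% of the Fth1 count, and adding them gave a log2 fold change of 0.32.

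Ftl1 (ENSMUSG00000050708.10; chr7:45457944-45459884, minus strand) encodes the ferritin light chain, which builds the shell together with the heavy chain and helps form the iron core. The DMSO libraries read 601, 582 and 595 CPM and the erastin libraries 510, 591 and 524 CPM. Erastin replicates 1 and 3 lay below all controls, and erastin replicate 2 lay among them. The log2 fold change was -0.13 (SE 0.07, 95% interval -0.28 to 0.023, edgeR adjusted p = 0.161). Its direction turned under the GC and length offset (0.068, edgeR adjusted p = 0.481). Transcripts of 7 rows in the table aligned to Ftl1 at 90% identity or more, and they held reads equal to 1.02% of its count. The most alike, Ftl1-ps1, is 97.3% identical over 930 bases. How the authors' counting treated reads that match both is not known, so the Ftl1 level is uncertain too.

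Because the ferritin subunits share 1 shell, their ratio was taken within each library, where it does not depend on the library scaling factors. Lengths were those of the union of annotated exons. The ratios depend on the length used, while the fold between groups does not. Fth1 counts per kilobase were 0.234, 0.274 and 0.235 of those of Ftl1 in DMSO libraries and 0.362, 0.329 and 0.323 in erastin libraries. The groups did not overlap: the heavy-to-light ratio of transcripts was 1.37-fold higher with erastin (0.248 ± 0.0228 against 0.338 ± 0.0212, SD, n = 3; exact two-sided permutation p = 0.10, the smallest that 3 against 3 libraries can give). The Tfrc to Fth1 ratio was 0.101, 0.0844 and 0.100 with DMSO and 0.148, 0.138 and 0.135 with erastin. It too was higher in every erastin library, by 1.48-fold (exact two-sided permutation p = 0.10, again the smallest possible). After the GC and length offset, chosen for the ratios after seeing the data, the log2 differences were 0.29 in place of 0.45 for Fth1 to Ftl1 and 0.32 in place of 0.56 for Tfrc to Fth1, and the groups did not overlap in either. Without the offset the Tfrc to Fth1 ratio was, in mean ± SD, 0.0951 ± 0.00935 with DMSO and 0.140 ± 0.00674 with erastin (n = 3).

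**Figure D2:**
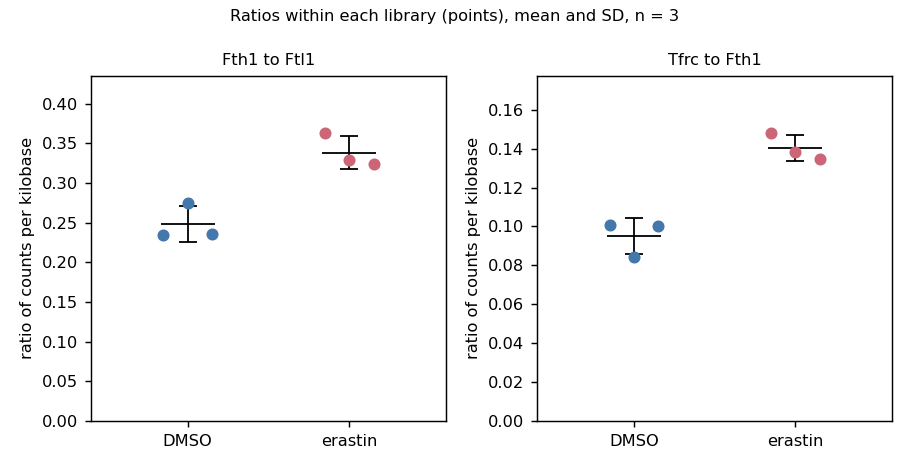
Ratios of counts per kilobase within each library for Fth1 to Ftl1 (left) and Tfrc to Fth1 (right); points are libraries, bars the group mean and SD (n = 3), and both axes start at 0. In each panel the 3 erastin libraries lie above the 3 DMSO libraries.

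Ncoa4 (ENSMUSG00000056234.10; chr14:32159865-32179855, plus strand) encodes the cargo receptor that takes ferritin to autophagosomes, by which stored iron is released, and so it also belongs among the autophagy receptors. Its levels were 19.0, 21.3 and 27.1 CPM in DMSO and 19.97, 15.0 and 22.6 CPM with erastin. The groups overlapped, and the SD was 18.6% of the mean in DMSO and 19.9% in erastin. The log2 fold change was -0.22 (95% interval -0.60 to 0.15, edgeR adjusted p = 0.331), an interval that holds both 0.661 and 1.11 of the control level. A processed pseudogene, Gm6768, is 99.6% identical to Ncoa4 over 1883 bases and held reads equal to 8.34% of the Ncoa4 count, so how the authors' counting treated reads that match both makes the Ncoa4 level uncertain.

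Slc40a1 (ENSMUSG00000025993.6; chr1:45908068-45926523, minus strand) encodes ferroportin, the iron exporter. It had the lowest level of the 10 genes, at 8.01, 4.49 and 3.81 CPM with DMSO and 4.10, 4.49 and 5.76 CPM with erastin, from 49 to 111 reads per library. DMSO replicate 1 was high, and the other 5 libraries lay close together. The log2 fold change was -0.18 with a wide 95% interval of -0.87 to 0.51 (edgeR adjusted p = 0.683), and it was 0.20 without DMSO replicate 1 (edgeR adjusted p = 0.679). No difference was detectable at this depth and spread.

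Aco1 (ENSMUSG00000028405.9; chr4:40143081-40198338, plus strand) encodes cytosolic aconitase, which becomes the RNA-binding sensor IRP1 when it loses its iron-sulfur cluster. The libraries were tight, at 75.1, 78.3 and 78.1 CPM in DMSO and 62.0, 60.9 and 59.99 CPM in erastin. Every erastin library lay below every DMSO library. The mean fell from 77.1 ± 1.77 to 61.0 ± 1.01 CPM (SD, n = 3), to 0.790 of the control (log2 fold change -0.34, SE 0.08, 95% interval -0.52 to -0.16, edgeR adjusted p = 0.0039).

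Ireb2 (ENSMUSG00000032293.7; chr9:54863789-54912530, plus strand) encodes IRP2, the sensor whose protein is degraded when iron is plentiful. It was at 86.4, 94.4 and 87.4 CPM with DMSO and at 91.9, 78.8 and 98.0 CPM with erastin. The erastin libraries included both the lowest and the highest of the 6 values. Its log2 fold change was 0.0021 (95% interval -0.20 to 0.20, edgeR adjusted p = 0.988). With the GC and length offset it was -0.24 and passed (edgeR adjusted p = 0.031, range over its alternatives 0.031 to 0.99997). The difference between the changes of Aco1 and Ireb2 was not tested.

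**Figure D3:**
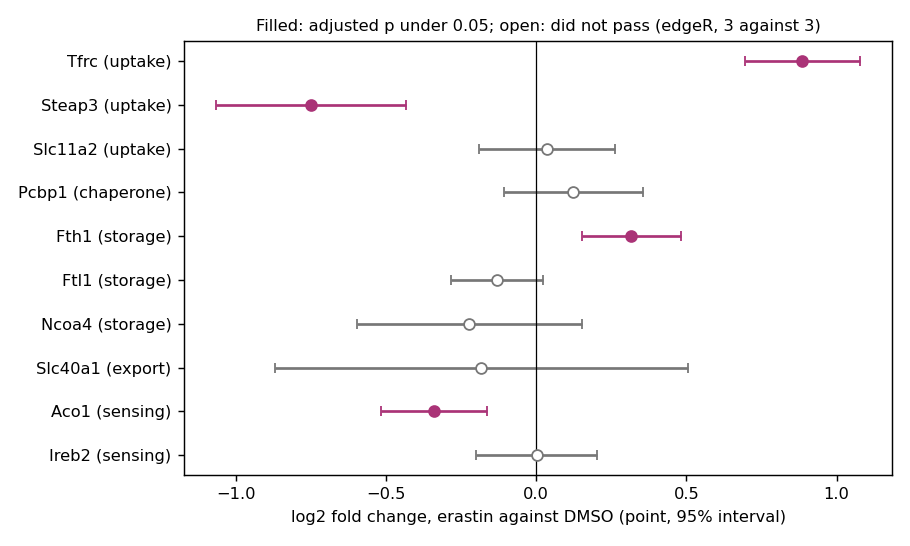
Log2 fold change of erastin against DMSO for the 10 iron genes with 95% intervals, grouped by role; filled points passed at an adjusted p under 0.05 and open points did not. Tfrc (0.89) and Steap3 (-0.75) have the widest distance from 0, and the intervals of the 6 open genes include 0.

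Seen against the hairpins printed above, the 5 genes that carry one did not move as 1 group. Of those with a 3′ UTR site Tfrc rose and Slc11a2 had a value of 0.035. Of those with a 5′ UTR site Fth1 rose, while Ftl1 (-0.13) and Slc40a1 (-0.18) did not pass. The ferritin sites act on translation, which counts do not measure, so these values do not tell whether the sensor proteins bound. Binding was not measured, and the differences between these genes were not tested. Steap3 and Aco1 fell and had no match in any annotated transcript under the search rules given above, which would miss elements of another form. In the 300-base RefSeq promoter windows around start sites (GRCm38.p6), which 8 of the 10 genes had, the antioxidant response element core TGACNNNGC was found on either strand in 1 of 15 windows, an Ncoa4 window with tgacctggc 44 bases before the start site. Over all 32851 windows 12.4% held it. Slc40a1 and Slc11a2 had no window, and sequence farther from the start sites was not searched, so elements there would be missed.

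Levels between genes were compared as RPKM (CPM per kilobase of the union of annotated exons). Ftl1 was the most abundant at 442 ± 7.42 RPKM in DMSO, then Fth1 (110 ± 8.26), Pcbp1 (82.6 ± 11.2), Aco1 (17.2 ± 0.394), Tfrc (10.4 ± 0.291), Ireb2 (9.43 ± 0.458), Slc11a2 (7.15 ± 0.724), Steap3 (5.14 ± 0.269), Ncoa4 (2.40 ± 0.447) and Slc40a1 (0.604 ± 0.250; SD, n = 3 each). No 2 neighbours in this order overlapped in their 3 libraries. With erastin Tfrc, at 19.2 ± 1.83 RPKM, passed Aco1, at 13.6 ± 0.225 RPKM, and the other genes kept their places. The order depends on the length used: per kilobase of the longest transcript, Ireb2 (15.5 ± 0.753 RPKM) stood above Tfrc (13.1 ± 0.368 RPKM) in DMSO, the Steap3 and Ncoa4 libraries overlapped in both groups, and Aco1 and Ireb2 overlapped with erastin. Ferritin transcripts headed the order and the exporter transcript ended it by either length.

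**Figure D4:**
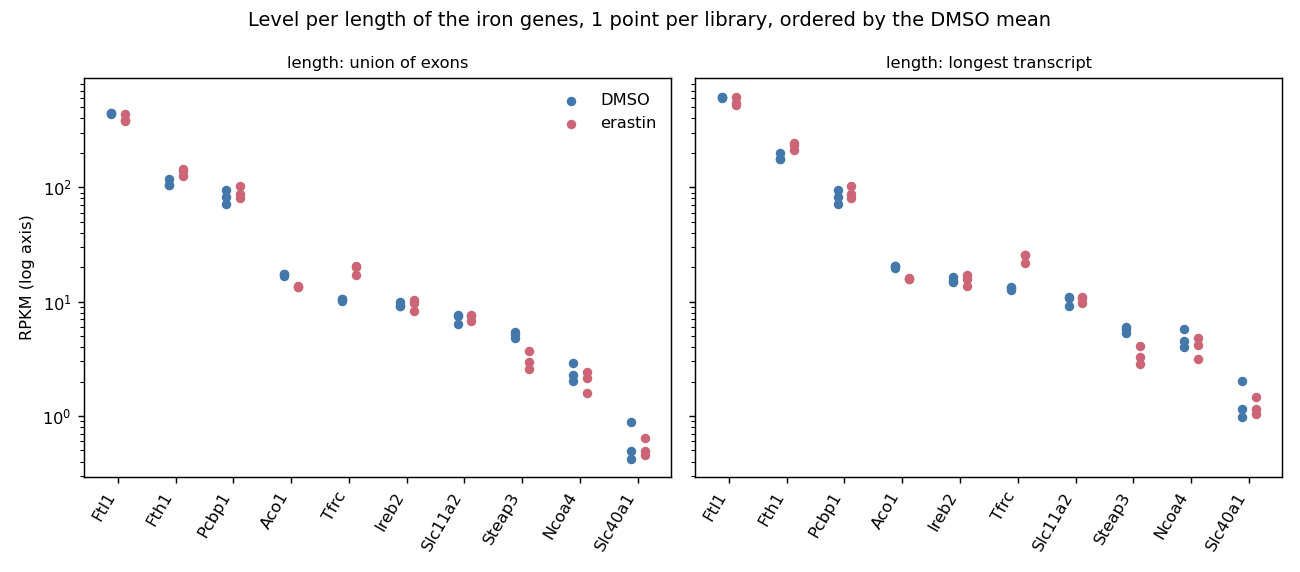
RPKM of the iron genes on a log axis, 1 point per library (DMSO blue, erastin red), by the union of exons (left) and by the longest transcript (right), ordered by the DMSO mean. Ftl1, Fth1 and Pcbp1 lead and Slc40a1 is last in both panels; the erastin points of Tfrc lie above those of Aco1.

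The other genes of iron handling were read from 6 lists of 80 genes in all, of which 68 were tested. Of these 13 were higher and 17 lower (44.1%, against 43.1% of all tested genes), with a median log2 fold change of -0.068. The lists moved in both directions, as the 10 genes did.

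Of the other uptake genes 12 of 18 were tested; 3 rose and 4 fell, with a median of -0.19. The STEAP family split: Steap2, a metalloreductase, fell (DMSO 89.7 ± 8.66, erastin 51.1 ± 1.76 CPM, SD, n = 3; log2 fold change -0.81, edgeR adjusted p = 6.52e-06), as Steap3 did, while Steap1 rose (DMSO 19.95 ± 2.53, erastin 31.6 ± 0.453 CPM; log2 fold change 0.67, edgeR adjusted p = 0.000727). Slc22a17, a receptor for the siderophore carrier lipocalin 2, fell (DMSO 10.0 ± 2.54, erastin 4.95 ± 0.704 CPM; edgeR adjusted p = 0.00424). The genes left untested for low counts were Tfr2, Trf, Ltf, Steap4, Cybrd1 and Lcn2. Without DMSO replicate 3, and likewise without erastin replicate 2, 4 genes of this list passed in place of 7.

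In the list of other storage and chaperone genes, 7 of 8 were tested; 1 rose and 2 fell, with a median of -0.047. Herc2, the ubiquitin ligase that marks NCOA4 for degradation in iron-rich cells, rose (DMSO 147 ± 3.66, erastin 180 ± 13.0 CPM, SD, n = 3; edgeR adjusted p = 0.00684). Pcbp4, a relative of Pcbp1, fell (DMSO 101 ± 1.69, erastin 78.8 ± 0.608 CPM; edgeR adjusted p = 0.00161) and so did Hint1 (DMSO 131 ± 4.84, erastin 109 ± 14.3 CPM; edgeR adjusted p = 0.0401). A role of Hint1 in iron handling was not tested here. With the GC and length offset neither fall passed, which left 1 passing gene. Hint1 also did not pass without DMSO replicate 1 or 2 or erastin replicate 1 or 2, with adjusted p-values of 0.0782 to 0.177 (edgeR), or with total count only as scaling (edgeR adjusted p = 0.141).

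Of 10 other export and export control genes 5 were tested; Bmp6 and Cp rose and Erfe fell, with a median of -0.058. Bmp6, a ligand known to induce the iron hormone hepcidin in liver, rose (DMSO 20.8 ± 5.40, erastin 34.1 ± 4.21 CPM, SD, n = 3; log2 fold change 0.72, edgeR adjusted p = 0.00259). Cp, the plasma ferroxidase ceruloplasmin, rose (DMSO 2.97 ± 1.03, erastin 6.51 ± 1.82 CPM; log2 fold change 1.13, edgeR adjusted p = 0.0145); it did not pass without DMSO replicate 1 (edgeR adjusted p = 0.0573) or without erastin replicate 3 (edgeR adjusted p = 0.0763). Erfe, which encodes a hepcidin-lowering hormone, fell (DMSO 3.49 ± 0.143, erastin 1.25 ± 0.288 CPM; log2 fold change -1.48, edgeR adjusted p = 0.0107). Hepcidin itself (Hamp) had at most 2 reads in any library.

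All 11 other sensing and mRNA control genes were tested; 2 rose and 4 fell, with a median of 0.0084. Fbxl5, the iron-binding F-box protein that directs IRP2 to degradation, had 28.7 ± 3.21 CPM with DMSO and 31.8 ± 1.34 CPM with erastin (SD, n = 3; edgeR adjusted p = 0.353), while the scaffold of its ligase, Cul1, rose (DMSO 85.0 ± 5.39, erastin 121 ± 5.76 CPM; edgeR adjusted p = 0.000174). Epas1, which encodes HIF-2α and is a known IRP1 target, fell (DMSO 27.0 ± 1.45, erastin 15.1 ± 2.05 CPM; log2 fold change -0.83, edgeR adjusted p = 0.000269). Hif1a fell (DMSO 465 ± 38.3, erastin 345 ± 41.2 CPM; edgeR adjusted p = 0.00128). Zc3h12a and Rc3h1, whose products degrade mRNAs that include Tfrc, had log2 fold changes of 0.097 and 0.0084 and did not pass (edgeR adjusted p = 0.788 and 0.949); Fbxl5, Zc3h12a, Rc3h1 and Hamp were named after their values were seen. Leaving out DMSO replicate 1, erastin replicate 1 or erastin replicate 2 left 3 passing genes in place of 6.

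Of the 24 mitochondrial iron import and iron-sulfur cluster genes, all tested, 3 rose and 4 fell, with a median of -0.11. Slc25a37, which encodes mitoferrin 1, a carrier of iron into mitochondria, rose 2.63-fold (DMSO 23.3 ± 1.1997, erastin 61.2 ± 7.23 CPM, SD, n = 3; log2 fold change 1.39, edgeR adjusted p = 2.07e-07). Hspa9, the mitochondrial chaperone that helps cluster transfer, rose (DMSO 630 ± 24.4, erastin 1001 ± 53.7 CPM; edgeR adjusted p = 1.85e-06), and the ferredoxin gene Fdx1l fell (DMSO 32.9 ± 3.72, erastin 22.8 ± 0.941 CPM; edgeR adjusted p = 0.00302). Fdx1l did not pass with the GC and length offset (edgeR adjusted p = 0.134), and the count of the list was then 3. Without DMSO replicate 1, and without erastin replicate 1, it was 4. In the cytosolic assembly list, 2 of 9 genes rose and 2 fell, with a median of 0.17. The targeting factors Fam96a and Mms19 fell, with log2 fold changes of -0.52 and -0.37 (edgeR adjusted p = 0.00414 and 0.00464). Narfl rose (log2 fold change 0.49, edgeR adjusted p = 0.0163), but did not pass without DMSO replicate 3 (edgeR adjusted p = 0.0563) or without erastin replicate 3 (edgeR adjusted p = 0.0797). Without DMSO replicate 3, 2 genes of this list passed.

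**Figure D5:**
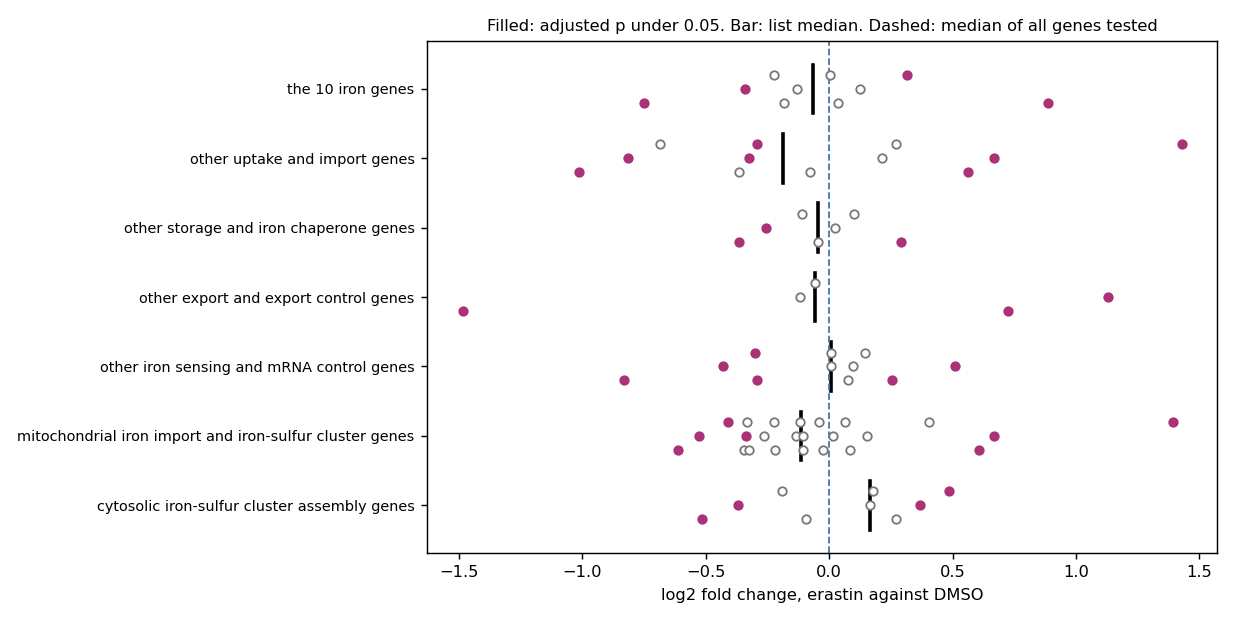
Log2 fold change of every tested gene in the 10 iron genes and the 6 lists; filled points passed at an adjusted p under 0.05, black bars are list medians and the dashed line is the median of all tested genes (-0.0014). Each list holds filled points on both sides of 0, with Slc25a37 (1.39) near the upper end and Erfe (-1.48) at the lower end.

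The genes whose pattern over the 6 libraries was most like that of Tfrc, by Euclidean distance between mean-centred log2 CPM profiles over 12663 named genes, were Otud4 (0.053), Aebp2 (0.071) and Stam2 (0.078). Otud4 encodes a deubiquitinase, and its mean CPM was 59.9 ± 2.33 for DMSO and 112 ± 8.88 for erastin (SD, n = 3). Aebp2 stood at 60.7 ± 0.190 and 114 ± 13.0 CPM, and Stam2, an endosomal sorting protein gene, at 72.9 ± 2.88 and 134 ± 8.50 CPM. The 6 libraries form 2 groups, so likeness rests mainly on the difference between treatments.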

How the data were processed

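The authors deposited whole-number read counts per gene, 1 column per library, not normalized. HTSeq 0.9.1, SAMtools and the build mm10 are named, per the submitters' processing notes; the aligner, annotation release and strand setting are not given in the sources used here. Per the labels' protocols, rRNA was depleted and libraries were amplified by 16 PCR cycles for Ion Proton sequencing, with no molecular identifiers named. Each column header was tied to its library by the number in the sample description, and 0 columns were left unused. Row numbers start at 6, so earlier rows are not analysed here.

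Identifiers were matched without version to GENCODE M21 (GRCm38, the same assembly as mm10); 98.0% had a symbol. Genes were kept by filterByExpr (minimum count 10, total 15), scaled by TMM and tested with edgeR 4.0.16 (glmQLFit, glmQLFTest) in R 4.3.3, treatment being the only term; the threshold was an adjusted p of 0.05. Near copies were found with BLAST 2.17.0 (90% identity over at least 200 bases). The test was also run on simulated data in which far fewer genes were changed than passed here, and no support is drawn from it. No pair of libraries within a group agreed within sampling noise (chi-square per degree of freedom 11.0 to 19.2).

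The 10 genes, the lists and the tests were chosen with earlier results of these data known. Named were all 10 genes, up to 3 passing genes per list with the smallest p, and the 3 nearest profiles. Alternatives were RLE and upper-quartile factors, total count only, 2 other filters, the replicate block, DESeq2 1.42.0, limma-voom (limma 3.58.1), a GC and length offset (mgcv 1.9.3), thinning to the smallest library, an adjusted p under 0.01, adding reads of near copies, and leaving out each library. Adding copies found by sequence and applying the offset to the ratios were chosen after seeing the data.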

Additional observations from a re-analysis of the deposited data

How the results depend on the processing

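Tfrc, Fth1, Steap3 and Aco1 kept their direction and passed under all alternatives run for each (18 to 20). Without any 1 library, log2 fold changes ran from 0.84 to 0.97 for Tfrc, 0.27 to 0.38 for Fth1, -0.90 to -0.63 for Steap3 and -0.36 to -0.33 for Aco1, and 4 of the 10 genes passed each time. With the GC and length offset 6 passed, Pcbp1 (0.30, and 0.31 with the replicate block) and Ireb2 joining. All tested genes passing numbered 6028, and 4305 to 6130 under the alternatives; upper-quartile factors and total count only moved the share higher from 50.2% to 44.0% and 57.1%.

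Small values changed sign. Ireb2 was -2.84e-05 under RLE scaling, -0.052 under upper-quartile scaling, -0.00022 where 1 CPM in 3 libraries was required, -0.0028 with the replicate block, -3.18e-05 with DESeq2, -0.0027 with limma-voom, -0.013 and -0.017 after thinning without and with the block, and -0.24 and -0.25 after the offset without and with the block. Ftl1 was 0.068 and 0.066 after the offset without and with the block, and Slc11a2 was -0.019 with upper-quartile factors. Leaving out 1 library, Ireb2 ran from -0.064 to 0.086, Slc40a1 from -0.38 to 0.20 and Slc11a2 from -0.048 to 0.087. In these fits without 1 library the other uncalled genes, Ncoa4, Pcbp1 and Ftl1, kept their sign and did not pass. Ncoa4 ran from -0.35 (without erastin replicate 3) to -0.071 (without DMSO replicate 3), and was -0.077 without erastin replicate 2. Pcbp1 ran from 0.019 (without erastin replicate 2) to 0.23 (without DMSO replicate 3), with 0.033 without DMSO replicate 2 and 0.21 without erastin replicate 3. Ftl1 ran from -0.20 (without erastin replicate 2) to -0.090 (without erastin replicate 1). The causes were not tested.

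List counts moved as well. At an adjusted p under 0.01, 3 uptake, 1 export, 3 sensing, 3 mitochondrial and 2 cytosolic genes passed. The offset left 1 storage gene with and without the block, and 3 mitochondrial genes, or 4 with the block; total count only left 4 mitochondrial genes. Leaving out 1 library gave 4 to 6 uptake, 2 to 3 storage, 2 to 3 export, 3 to 6 sensing, 4 to 7 mitochondrial and 2 to 3 cytosolic genes.

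Replicate numbers are given only in the sample titles, so they were not taken as a pairing. Equally numbered libraries deviated together by correlations of 0.040, 0.0038 and -0.0055, which with 3 libraries per group cannot exclude a pairing. With the replicate block alone the log2 fold changes were 0.88 for Tfrc, 0.32 for Fth1, -0.76 for Steap3 and -0.34 for Aco1, and both ratios had an exact p of 0.25, the smallest that 3 pairs allow. Slc40a1 rested on 49 to 111 reads per library, and thinned to the smallest library it was -0.21.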

Other observations

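The hairpin core with all 5 pairs was also found in UTRs of genes outside the 10. Of 16 other genes with it in the 5′ UTR, 11 were tested, and 4 were higher and 3 lower with erastin (edgeR adjusted p under 0.05). Their median log2 fold change was 0.014. Of 103 other genes with the core in the 3′ UTR, 78 were tested, of which 21 rose and 16 fell; the median was 0.15. Over all tested genes 43.1% passed and the median was -0.0014. This search was made after the data had been seen, most such matches are not known elements, and no test of the sets was made.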
